A study of Mus musculus with 24 samples.

Results

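The cells described here are layer 6 corticothalamic neurons of the mouse primary motor cortex, picked out cell by cell from single-cell RNA counts. A cell was kept when it held at least 1000 unique molecular identifiers (UMIs, each standing for 1 captured RNA molecule), at least 500 genes and at most 20% mitochondrial UMIs. It then had to hold at least 1 UMI of Slc17a7, the vesicular glutamate transporter of cortical excitatory neurons, and 0 of Gad1 and Gad2, the GABA-synthesising enzymes. It also had to hold at least 2 UMIs of Foxp2 plus Syt6, at least 1 of Hs3st4, and 0 of Cux2, Otof and Nxph4, which mark upper layers and layer 6b. These 3122 gated cells were 17.0% of the 18395 glutamatergic cells and 6.20% of the 50361 motor cortex cells that passed the cell filter, and 3.01% of the 103715 such cells in the whole series. Because the gate was read from the same UMIs, the levels of its genes are a description of the choice and are not reported as findings.

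The series profiled motor cortex and dorsal striatum after mice learned a forelimb reaching task, in 24 samples, of which the 12 motor cortex libraries are used here. All motor cortex mice carried Fos-CreER and the Ai9 reporter, so that cells active around an injection of 4-hydroxytamoxifen are permanently marked by tdTomato. The Fos promoter drives the Cre, the marking therefore reflects Fos activity at labelling and not at harvest, and the control mice, which were not trained, carried the same alleles and received the same drug. Early mice were trained for 2 days, late mice for 8 days, and tissue was taken 3 days after labelling. By the labels, each library is 1 hemisphere pooled from 2 mice. The tissue was dissociated with papain and passed over a dead-cell column. There were 2 pools of mice for each of the 3 stages, giving 6 pools. The pool is the replicate in every comparison of stages except the fit of sums per pool and sex. Trained pools have a contralateral and an ipsilateral hemisphere relative to the trained limb, and control pools a left and a right one.

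Layer 6 corticothalamic neurons send axons to the thalamus and a collateral to the thalamic reticular nucleus, and so adjust the traffic between thalamus and cortex. Their identity depends on transcription factors that set deep-layer projection fate, among them Tbr1, Sox5 and Fezf2, with the corepressor Tle4. They lie beside layer 6b neurons, layer 6 intratelencephalic neurons and near-projecting neurons, which share several of these genes, so a gate of a few genes can admit neighbours.

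Gated cells per pool were 313 and 716 in controls, 446 and 455 in early mice, and 487 and 705 in late mice. A library held 36 (control 1, left) to 375 (control 2, left) of them, with a library median of 5754 to 22187 UMIs per gated cell, against 4470 to 12152 for the other glutamatergic cells. The labels mark each pool as a male and a female, and the 8 trained libraries held both gated cells with Xist UMIs only and gated cells with Y-linked UMIs only. The control libraries did not: in control 1, 0 gated cells had Xist only, while 86 in the right and 18 in the left library had Y-linked UMIs only. In control 2, the right library had 332 Xist-only cells and 0 Y-linked-only cells, and the left library had 0 and 300. Gated cells with neither kind were 191 of 277 (right) and 18 of 36 (left) in control 1. In control 2 they were 9 of 341 (right) and 75 of 375 (left). None of the control libraries thus matched the label of a male and a female. Sex therefore cannot be told apart from stage in control 1 or from hemisphere in control 2. Counts of stage calls, the activity, identity and microglial lists and the leading stage genes are given with and without those pools. Barcode sharing between libraries put control 1 and late 1 (1 labelled batch) in one library class, here called A, and the other 4 pools in another, B. The class is inferred, since the labels give a batch and no kit: class A pairs shared 0.789 to 1.75 barcodes per 1e6 possible barcode pairs, class B pairs 0.0976 to 0.554, and mixed pairs 0 to 0.437, a range that overlaps that of class B. Control 2 and early 1 also share a labelled batch, and no barcode of a gated cell occurred in a second library. Presumed doublets were 130 of the gated cells (4.16%).

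**Figure D1:**
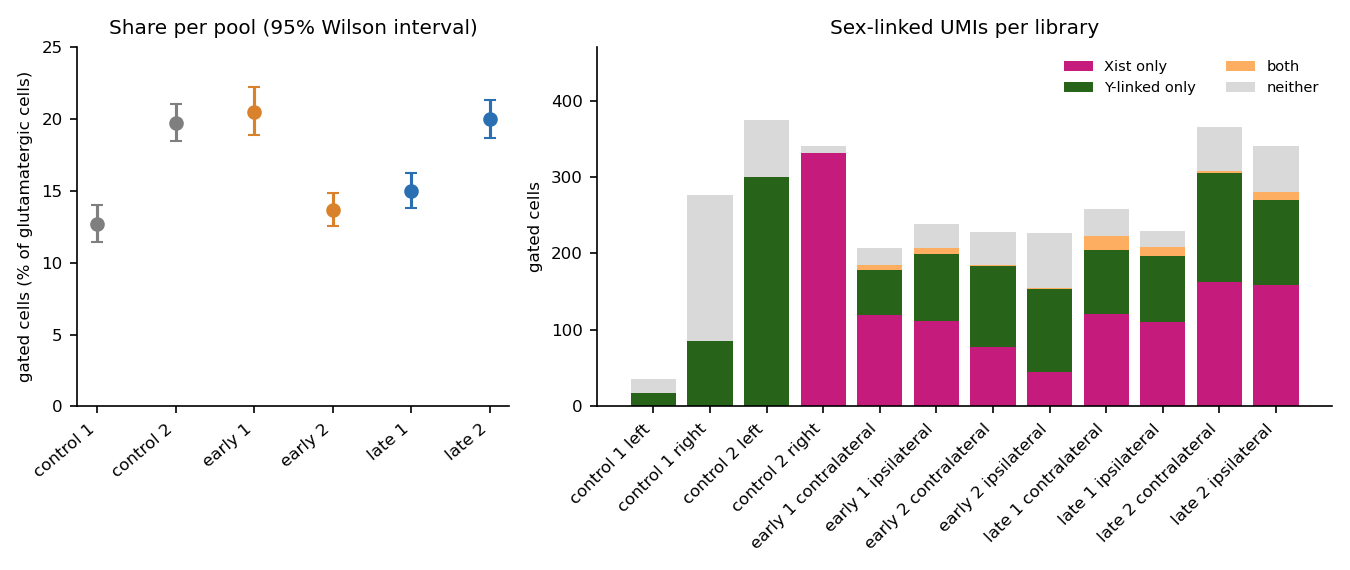
Left, gated cells as a percentage of glutamatergic cells in each of the 6 pools, with 95% Wilson intervals. Right, gated cells of each of the 12 libraries divided by the sex-linked UMIs they hold. Only the 8 trained libraries contain both Xist-only and Y-linked-only cells. Of control cells with sex-linked UMIs, those of control 2 right are Xist-only and those of the other libraries Y-linked-only. In control 1, 191 of 277 cells (right) and 18 of 36 (left) held neither.

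The edge of the gate was gradual for most genes. The 873 gated cells at the minimum of 2 Foxp2 plus Syt6 UMIs had 945 CPM of Rprm (the UMIs of a gene scaled to 1e6 UMIs summed over the cells) and 123 of Tshz2. The 970 cells just outside, with 1 such UMI, had 738 of Rprm and 376 of Tshz2. For Hs3st4, the 379 cells at 1 UMI had 1096 CPM of Rprm and the 191 cells at 0 had 979. The 84 cells left out for a single UMI of an exclusion gene had 661 CPM of Rprm and 375 of Cplx3, a layer 6b gene, against 29.9 over all gated cells.

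The identity genes outside the gate were high in these cells. All 12 had a higher level in gated than in other glutamatergic cells of the same pool in 6 of 6 pools, as did 13.1% of 22742 genes. In 10 the ranges of the 6 pools did not overlap, where the background is 2.9% of 22742 genes with gated pools above every other pool (9.5% below, 12.4% in all), and the median log2 difference of the list was 1.17. The 22742 genes include genes with few UMIs, which bears on these shares here and for the lists below. With TMM scaling factors and a count filter, chosen after seeing the data, all 12 were again higher in 6 of 6 pools, beside 22.5% of 16984 genes. The gate chose these cells, so levels against the rest carry no test here.

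Rprm, a p53-responsive gene used as a marker of this class, lies on chr2 at 54084093 to 54085552 (GRCm38, minus strand) and had the largest difference. Its level was 1092 and 1126 CPM in control pools, 1346 and 1346 in early pools and 1181 and 974 in late pools, for a mean of 1178 ± 147 (SD, n = 6) against 144 in other glutamatergic cells. Every gated pool was thus above the highest pool of the other cells, at 194 CPM. Crym (chr7, 120186380 to 120202111, minus strand), which encodes the thyroid-hormone-binding mu-crystallin, had 275 and 295 CPM in control pools, 392 and 403 in early pools and 326 and 376 in late pools, against a mean of 77.4 in the other cells. Zfpm2 (chr15, 40655035 to 41104592), a cofactor of GATA factors, was at 84.9 ± 27.0 CPM against 16.3.

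The transcription factors of deep-layer fate were higher by less. Tbr1 was at 250 CPM against 128, Fezf2 at 114 against 51.02, and the corepressor Tle4 at 268 against 89.2. Fezf2 was at 166 CPM in the layer 5 gate, but that gate was chosen by Fezf2 and Bcl11b UMIs, so this level describes the choice. Tle4 was higher in the layer 6b gate, at 321. Sox5, at 109 against 80.7 CPM, and Ntsr1, the neurotensin receptor whose Cre line labels this class, at 7.19 against 4.89, were higher in each pool but with overlapping ranges. Ntsr1 was detected at low level in every deep class, at 11.4 CPM in layer 5 and 13.5 in layer 6b. Lmo3 (135 against 95.8 CPM), Sulf1 (62.4 against 31.0), Nxph3 (161 against 72.4) and Thsd7b (17.3 against 4.90) completed the list. The latter pair was higher again in layer 6b, at 409 and 21.8 CPM.

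Markers of neighbouring cortical layers were at low levels but not at 0, with exceptions in the layer 5, layer 6 intratelencephalic and spiny-neuron lists. The 3 layer 6 intratelencephalic genes summed to 9.69 to 19.8 CPM over pools, against 12.0 to 20.8 in the other cells. Of them 1 lay above and 1 below every pool of the other cells, beside 2.9% and 9.5% of all genes. Cplx3 and Ctgf, of layer 6b, were at 31.2 and 22.0 CPM against 1680 and 820 in the layer 6b gate itself. That gate was chosen by Nxph4 and Cplx3 UMIs, so its Cplx3 level describes the choice. The upper-layer genes Calb1 (2.68 against 179), Rasgrf2 (2.04 against 103), Rorb (8.04 against 111) and Cux1 (14.2 against 83.3) lay below the other cells in every pool. Of the layer 5 list, Bcl11b, a zinc finger factor shared by subcerebral and corticothalamic neurons, was higher at 239 against 83.1, while Pou3f1 was at 2.29 against 68.8 and Bcl6 at 0.709 against 6.88. Of 5 spiny-neuron genes, 4 were higher than in the other cells in 6 of 6 pools, and their summed level was 226 to 570 CPM against 94.7 to 170. Most of it was Ppp1r1b, the phosphatase inhibitor DARPP-32, at 334 against 103, while the dopamine receptor gene Drd1 was at 18.0 against 13.8, Rgs9 at 22.7 against 10.2 and Adora2a at 3.05 against 0.870, and Drd2 had 2 UMIs in all gated cells. Slc17a6, the vesicular transporter of thalamic neurons, was at 4.13 against 23.8 CPM. The summed level of 6 microglial genes ranged over pools from 47.2 to 178 CPM in gated cells, against 135 to 571 in the other glutamatergic cells; oligodendrocyte genes summed to 14.0 to 69.1, astrocyte genes to 48.8 to 78.9 and GABAergic genes to 13.2 to 25.5.

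**Figure D2:**
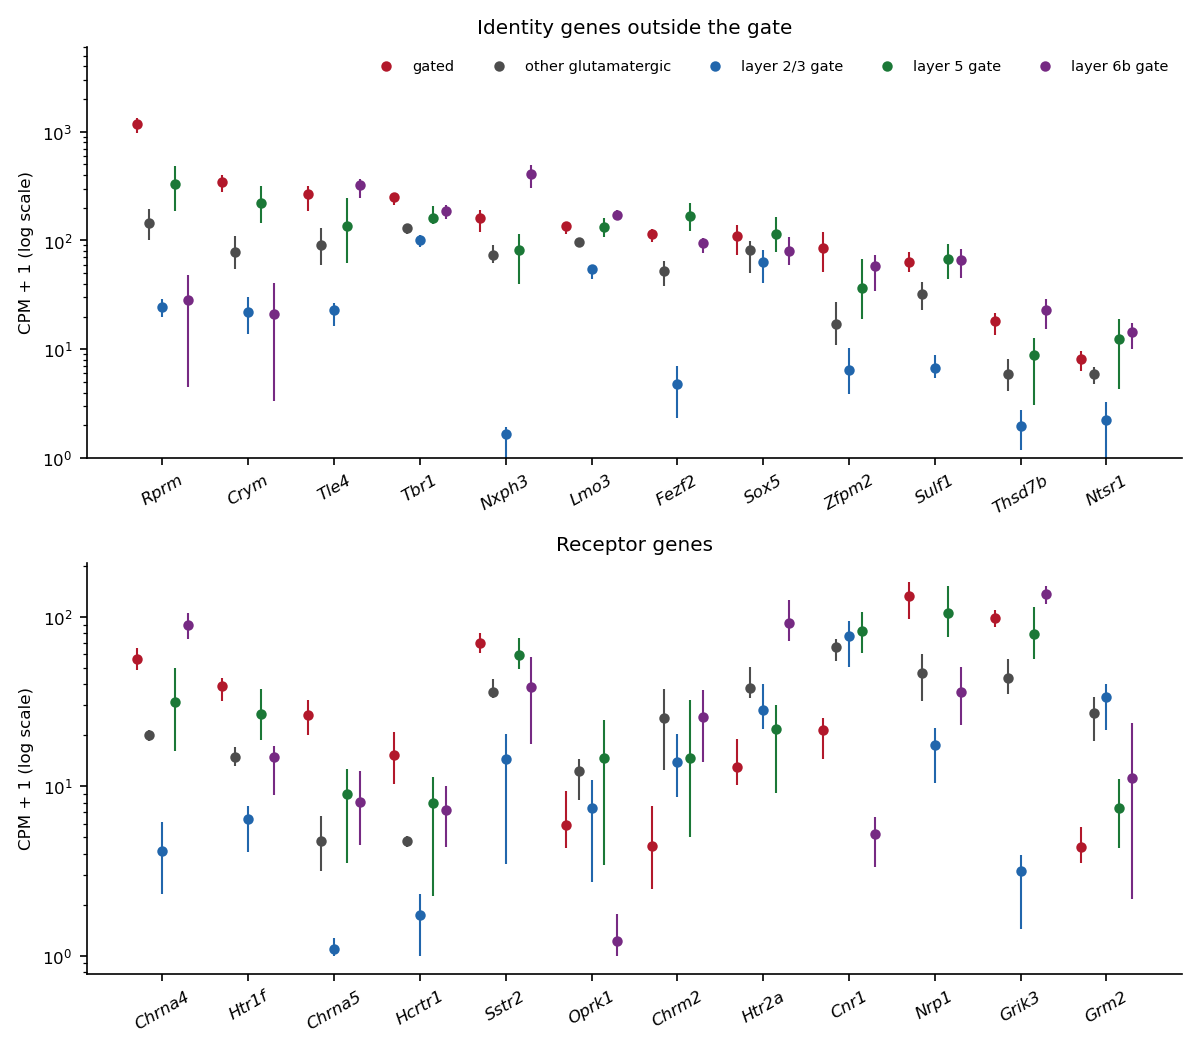
CPM plus 1 on a log axis for 12 identity genes and 12 receptor genes, in gated cells and 4 comparison gates; points are means of 6 pools and lines span the pools. Rprm at about 1178 CPM stands above all 4 other gates, Tle4 and Nxph3 do not, and Chrna5 and Htr1f are highest in gated cells while Chrm2 and Htr2a are low.

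Neuromodulator receptors lay on both sides of the other cells. Of 37 genes, 8 lay above and 8 below every pool of the other cells, with a list median of 0.05 on the log2 scale, where 2.9% of all genes lay above and 9.5% below. Chrna5 (chr9, 54980880 to 55007779), an accessory nicotinic receptor subunit, was at 25.2 ± 4.53 CPM against 3.74, and its partner Chrna4 at 55.3 ± 6.39 against 18.9. Chrna4 was higher in layer 6b, at 87.8 CPM, so that Chrna5 and not Chrna4 separated the gated cells from it. Htr1f (chr16, 64924729 to 65105854), a Gi-coupled serotonin receptor, was at 38.2 ± 3.85 against 13.8, and the orexin receptors Hcrtr1 and Hcrtr2 at 14.3 against 3.71 and 10.0 against 4.05. Drd5 (7.10 against 2.94), Sstr2 (68.5 against 35.0) and Adra1b (72.8 against 46.1) were also higher.

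The receptors below the other cells included muscarinic, serotonin, cannabinoid and adrenergic receptors. Chrm2, a Gi-coupled muscarinic receptor, was at 3.42 against 24.1 CPM and Chrm1 at 77.3 against 112. The Gq-coupled serotonin receptors Htr2a and Htr2c were at 11.9 against 36.9 and 1.18 against 6.27, whereas layer 6b held 90.6 CPM of Htr2a. Cnr1, the cannabinoid receptor, was at 20.5 against 65.0, Adrb1 at 46.6 against 89.2 and Adra2c at 9.13 against 24.2.

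Of glutamate receptors, 4 of 24 lay above and 6 below, beside the same 2.9% and 9.5% of all genes, which also apply to the lists that follow. The kainate subunit Grik3 was at 97.7 against 42.5 CPM and the presynaptic group III receptor Grm8 at 39.5 against 19.4, while Grm2 was at 3.38 against 26.0 and Grm5 at 104 against 200. Among 41 axon guidance genes, 9 were above and 18 below. Sema5a, a transmembrane semaphorin, was at 167 against 37.2 CPM, the semaphorin receptor Nrp1 at 132 against 45.7 and Ephb1 at 56.3 against 17.8. Plxnd1 (0.880 against 28.7), Unc5d (2.05 against 56.0) and Ntng1 (0.990 against 27.5), a plexin, a netrin receptor and a netrin-G protein, were at or near the lowest levels of the list. Potassium channels (24 genes, 4 above and 7 below) included Kcnk1 at 228 against 148 and Kcnq5, an M-current subunit, at 14.2 against 70.4 CPM. A few of the largest differences lay outside the lists: Trbc2 and Ighm, constant-region genes of lymphocyte receptors, at 519 against 116 and 321 against 54.1 CPM, and Col12a1 at 82.2 against 20.1. Camk2n1, an inhibitor of CaMKII, was at 342 against 2885, Cck at 534 against 2836 and Nptxr at 32.6 against 460.

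Variation between gated cells was read from the variance-to-mean ratio. After each of 3068 cells was thinned to 3000 UMIs, the ratio of variance to mean was near the Poisson value of 1 over 6444 genes (median 1.02), and 68 genes exceeded 1.5. Genes with a mean down to 0.05 UMIs per cell were included, and at such means a ratio near 1 does not show that a gene varies little. Malat1 (16.8), the cysteine-protease inhibitor Cst3 (10.7) and mitochondrial mt-Rnr2 (6.51) led. Tshz2, a zinc finger gene that marks near-projecting neurons, followed at 5.40 although only 2.33 to 6.11% of thinned cells in a pool held it. Apoe (3.24), Lypd1 (2.56), Pcp4 (2.50) and Rprm itself (2.43) were also variable.

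The Tshz2 signal came from a small set of cells. Only 95 gated cells (3.04%) held 2 or more Tshz2 UMIs, and these had 1016 CPM of Tshz2 against 4.02 in the other 3027, which follows from the split. Genes of the near-projecting list were higher in them: Slc17a8, a vesicular glutamate transporter, at 67.7 against 0.565, Trhr, the TRH receptor, at 31.7 against 0.0942, and Nxph1 at 218 against 1.32. Lypd1 was at 446 against 31.1 and Fezf2 at 266 against 111, while Rprm was lower at 612 against 1191. Other identity genes were mixed in these Tshz2 cells. Tbr1 (172 against 258) and Zfpm2 (52.3 against 88.2) were lower, whereas Crym (356 against 343), Tle4 (302 against 275) and Nxph3 (237 against 160) were not. Such cells were 2.88 and 4.19% of gated cells in control pools, 5.38 and 2.20% in early pools and 2.05 and 1.702% in late pools. Microglial UMIs were concentrated in the same way, with 111 gated cells of 3 or more microglial-list UMIs holding 69.7% of 3147 such UMIs, and presumed doublets 58.6%.

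The share of gated cells did not separate the stages. It was 12.7% (Wilson interval 11.4 to 14.0) and 19.7% (18.5 to 21.1) of glutamatergic cells in control pools, 20.5% and 13.7% in early pools and 14.96% and 19.96% in late pools. Mean shares were 16.2 ± 5.01% in controls, 17.1 ± 4.83% in early and 17.5 ± 3.54% in late mice (SD, n = 2 each), and the exact permutation test over pools, two-sided, gave p = 0.667 for early and for late, where 2 pools against 2 cannot go below 0.333. Libraries ranged from 12.3 to 24.9%. Within library class B the early difference was −2.66 percentage points and the late one 0.225, within class A the late difference was 2.30, and within the shared batch early 1 exceeded control 2 by 0.761. Depth bears on the gate: after thinning every cell to 2000 UMIs before gating, the early and late differences were −0.293 and −0.900 points, both with the opposite sign.

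No gene passed the threshold between stages. Summed UMIs of gated cells per pool were compared over 13703 genes with edgeR's quasi-likelihood test, with stage and library class in the model. At a Benjamini-Hochberg adjusted p under 0.05, 0 genes were called for early against control, late against control or late against early (0% in each). At an unadjusted p under 0.05 there were 432 genes for early (3.15%; higher in 2.52%), 694 for late (5.06%; higher in 3.36%) and 265 for late against early (1.93%), and DESeq2 called 2, 0 and 0 (0.0146%, 0% and 0%). The count of 0 depended on which pools were fitted: for early, late and late against early it was 67, 438 and 127 without control 1, 35, 25 and 55 without control 2, 63, 429 and 126 without late 1, and 71, 69 and 42 without late 2, and 1, 0 and 0 without early 1 and 3, 0 and 0 without early 2. Among settings chosen after seeing the data, gated cells with Y-linked UMIs only gave 0 in each, and sums per pool and sex with sex as a covariate gave 6, 173 and 16. The latter fit took 11 sums and had no pool block. The male and female sums of 1 pool thus counted as separate samples, and its counts cannot be set beside those with the pool as replicate. Library class A holds only control 1 and late 1, so without either pool the class term takes up the other. Late against control is then late 2 alone against control 2 alone in both fits. They give the same comparison and are not separate checks. With 2 pools a stage, p-values measure the spread between these pools. The values below for named genes are therefore levels and differences that did not pass.

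Of 20 activity-regulated genes, edgeR called 0 for early or late against control with all pools fitted, and 15 and 18 had a difference above 0. The immediate-early genes among them, transcribed within minutes of strong activity, include the transcription factors Fos, Fosb, Junb and Jun of the AP-1 complex, Egr1, Npas4, and the synaptic effector Arc. For Fos, log2 CPM was 6.40 and 7.31 in control pools, 7.57 and 7.81 in early pools and 7.44 and 7.39 in late pools, so that both trained stages lay above both controls. The class-adjusted log2 difference was 0.59 ± 0.23 (SE) for early and 0.53 ± 0.21 for late. Junb gave 8.00 and 8.26 in controls, 8.60 and 8.90 in early pools and 8.51 and 8.50 in late pools, with differences of 0.56 ± 0.16 and 0.38 ± 0.15. Bdnf, the growth factor gene driven by calcium entry, gave 5.64 and 5.84 in controls, 6.04 and 6.52 in early pools and 6.08 and 6.39 in late pools, with 0.43 ± 0.20 and 0.50 ± 0.18. In edgeR's test the adjusted p for each of these was 1 for early and 0.902 for late.

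Egr1, Arc and Npas4 did not separate the groups in this way. Egr1 log2 CPM was 8.93 and 9.95 in controls, 9.62 and 9.74 in early pools and 9.51 and 9.57 in late pools, so that its trained pools lay between the controls. Arc gave differences of 0.03 for early and −0.21 for late, and Npas4 −0.11 and 0.11. Ier2 log2 CPM was 5.42 and 5.92 in controls, 5.96 and 6.43 in early pools and 6.43 and 6.09 in late pools, and Btg2 gave 5.59 and 5.62, 5.71 and 6.20, and 6.01 and 6.18. For both, as for Fos and Junb, every trained pool lay above both controls; of all genes, 34.7% had groups that did not overlap for early and 20.1% for late. Of the 20 activity genes, 2 were higher for early at an unadjusted p under 0.05, beside 2.52% of all genes, with a median of 0.21 against 0.004 over all genes. For late these were 8, beside 3.36%, and 0.25 against 0.006. The 8 did not hold in every setting: it was 0 without the library class term. Without control 1, without late 1 and in class B only, late against control is the same comparison, late 2 alone against control 2 alone. In each of these settings 12 of 20 genes were above 0, with medians of 0.09, 0.08 and 0.09. Late against early had 14 above 0 and a median of 0.08, and no steady direction: it was 7 (−0.08) without control 1, 8 (−0.07) without control 2, 7 (−0.04) without early 1, 8 (−0.07) without late 1, 16 (0.22) without early 2 and 18 (0.53) without late 2. Other lists also had medians away from 0 against control, given here with all pools fitted only, and edgeR called 0 of their genes. Of 94 ribosomal protein genes, 83 were above 0 for early (median 0.23, 21 higher unadjusted) and 73 for late (0.14, 6 unadjusted). Of 11 heat shock genes these were 9 (0.12) and 11 (0.14). Of 24 potassium channel genes they were 6 (−0.14) and 7 (−0.07). Whether activity-gene RNA at harvest reflects training or dissociation was not tested.

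**Figure D3:**
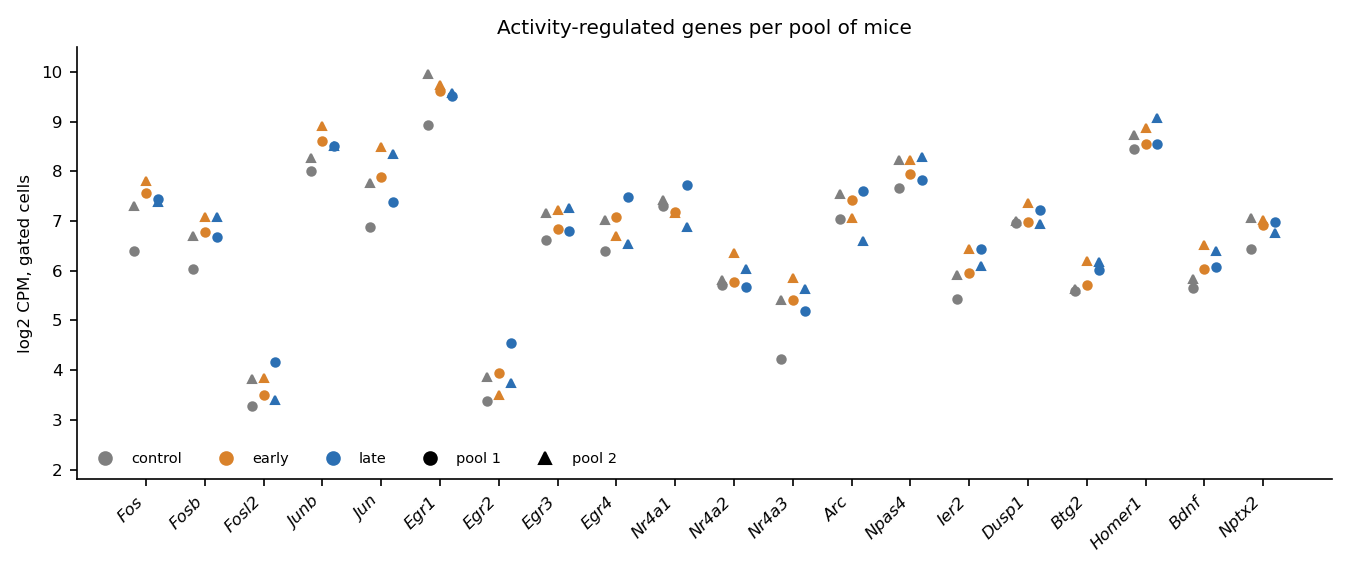
Log2 CPM of 20 activity-regulated genes in gated cells, 1 point per pool (circles pool 1, triangles pool 2). Control 1 (grey circle) is lowest for most genes, and for Fos and Junb both trained stages lie above both control pools, whereas for Egr1 control 2 lies above them.

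The counts depended on which pools were fitted. Without control 1, which leaves a single control pool assumed to vary like the others, 10 of 20 activity genes were above 0 for early and 12 for late, with medians of 0.08 and 0.09. Without late 1 they were also 10 and 12, with medians of 0.07 and 0.08. Class A then holds 1 pool, which the class term takes up, so this restates the comparison without control 1. Without late 2 they were 10 and 19 (medians 0.08 and 0.52), and without early 2 the early count was 13 (0.08). In each fit with an early count of 10, the early difference is both early pools against control 2 alone. Without late 2, the late difference is late 1 against control 1, as within class A. Without control 2 the medians were 0.67 and 0.50, with 16 and 19 genes above 0. Some of these fits called activity genes in edgeR, and in those fits calls over all genes also rose from 0. Each of them leaves a stage with 1 pool. For Fos the early and late differences were 0.38 and 0.08 without control 1 and 1.31 and 1.01 without control 2, for Junb 0.50 and 0.24, then 0.73 and 0.48, and for Bdnf 0.44 and 0.54, then 0.30 and 0.41. Within library class A (control 1 and late 1) 19 of 20 were above 0 with a median of 0.52. Within class B the late median was 0.10 (12 of 20) and the early one 0.08 (10 of 20), and in the labelled batch of early 1 and control 2 it was −0.01 (9 of 20). Control 1 is also the control pool with no Xist-only cells. Without the class term in the model, 18 of 20 were above 0 for early and for late, with medians of 0.19 and 0.28. In settings chosen after seeing the data, gated cells with Y-linked UMIs only gave 15 of 20 for early (median 0.08, 0 at an unadjusted p under 0.05) and 15 for late (0.18, 3 unadjusted). Sums per pool and sex with sex as a covariate gave 13 (median 0.14) and 15 (0.20), with 1 activity gene called for late, beside 173 genes in all. This fit has no pool block, so the male and female sums of 1 pool count as separate samples.

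Among identity genes, Crym gave log2 CPM of 8.16 and 8.15 in controls, 8.61 and 8.62 in early pools and 8.46 and 8.52 in late pools. The groups did not overlap, as in 34.7% of all genes for early and 20.1% for late. The differences were 0.45 ± 0.13 (SE) and 0.33 ± 0.12. Rprm gave a difference of 0.38 ± 0.14 for early and −0.01 for late. No identity gene was called, and 10 of 12 were above 0 for early and 7 for late. Without control 1 these were 6 and 6, and without control 2 they were 8 and 7. Crym differed by 0.46 and 0.36 without control 1 and 0.36 and 0.27 without control 2, and Rprm for early by 0.29 and 0.62.

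Other genes with the smallest unadjusted p are given as values that did not pass. For early, mt-Atp8 had 6.30 and 6.15 against 4.79 and 5.30 in controls, a difference of 0.90 and the smallest adjusted p of those named, 0.722 in edgeR. Other genes of that rule were mt-Nd3 (1.07) and Gm14172 (1.02) above, and Zfp385b (−0.50), Tlk2 (−0.53), Epm2a (−0.59), Fam222b (−0.63) and the ephrin gene Efna5 (−0.48) below. For late, Nbl1, a secreted BMP antagonist, had 4.94 and 5.37 against 4.19 and 4.25, a difference of 0.98. The growth factor gene Ptn had 6.76 and 6.78 against 6.09 and 6.26 (0.59), Fgfr1 differed by 0.80, and Gm10080 and Gm14172 by 1.20 and 0.92. Below were the sodium-channel subunit Scn4b, at 4.87 and 4.41 against 5.80 and 5.25 (−0.89), with Tpbg (−0.90), H1fx (−0.76), Irak1 (−0.72) and Inafm2 (−0.71). Nbl1 (1.18), Gm10080 (0.99), Gm10635 (0.70), Zbtb20 (0.66) and Sec61a1 (0.53) were also higher in late than in early pools, and mt-Nd3 (−0.88), Arhgef10l (−0.76), Lrrc75a (−0.74), Kctd6 (−0.71) and Irak1 (−0.59) lower. Without control 1 and without control 2, mt-Atp8 differed by 0.95 and 0.71 for early, and for late Nbl1 by 1.12 and 0.73, Ptn by 0.51 and 0.64, Scn4b by −0.86 and −0.96, Fgfr1 by 0.97 and 0.51, Gm10080 by 1.58 and 0.71 and Tpbg by −1.20 and −0.61.

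All 6 microglial genes of the list had a difference above 0 for early at an unadjusted p under 0.05, beside 2.52% of all genes. In edgeR 0 were called, and the median was 1.73. For late all 6 were above 0 with a median of 0.48. The summed level over pools was 109 and 47.2 CPM in controls, 118 and 102 in early pools and 178 and 57.3 in late pools. Without the class term the early median was 0.44 and 0 of the 6 genes passed unadjusted, and both early pools are of class B. The early and late medians were 1.69 and 0.38 without control 1 and 1.97 and 0.67 without control 2. Some fits that leave out 1 pool called microglial genes for early, and calls over all genes also rose there. Without control 1, without late 1 or without late 2, the early difference is the same comparison, both early pools against control 2 alone. Late against early had 0 of 6 above 0 and 5 lower at an unadjusted p under 0.05 (beside 1.93% of all genes in either direction), with a median of −1.11. This direction turned without the class term, with 5 of 6 above 0 and a median of 0.33. It also turned in gated cells with Y-linked UMIs only, with 4 of 5 above 0 (0.40). With presumed doublets removed the late against early median was −0.36, with 0 lower unadjusted. DESeq2 called 2 of the 6 for early, of 2 genes called in all. In edgeR 4 were called without the filter on low counts, of 59 in all. With a stricter gate (at least 4 Foxp2 plus Syt6 UMIs and 2 of Hs3st4) edgeR called 3, of 4 in all. With presumed doublets removed the early median was 1.12, and 2 of the 6 genes passed unadjusted. In gated cells with Y-linked UMIs only, the direction turned, with a median of −0.21, 2 of 5 tested genes above 0 and 0 unadjusted. Leaving out cells with 3 or more UMIs of the list takes away most of its UMIs, so the list has no value to read there. Without those cells the early activity genes had a median of 0.22 (15 of 20 above 0) and the identity genes one of 0.07 (9 of 12).

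Stage differences of gated cells were also compared with those of the other glutamatergic cells in the same pools. For early, 7 of 16984 genes differed between the classes in edgeR (0.0412%), 4 with a higher and 3 with a lower difference in gated cells; the former were the haemoglobin genes Hba-a1, Hba-a2, Hbb-bs and Hbb-bt, and the latter were Apod, Dcn and Itm2a. For late, 47 genes differed (0.277%), 22 higher and 25 lower. DESeq2 called 0 and 1. The early count was 1 without control 1 and without late 1, 33 without control 2, 25 without early 1, 23 without early 2 and 11 without late 2, and the late count was 26 without control 1 and 15 without control 2 and without late 2. Bdnf gave 5.65 and 5.93 in gated control pools and 6.10 and 6.45 in late pools, while the other cells gave 7.46 and 7.57, then 7.65 and 7.36, a difference of differences of 0.54. Nbl1 (0.79) and Wnt4 (1.26), a secreted Wnt ligand, also had a higher late difference in gated cells, and Nxph3 (−0.50) and Cyr61 (−0.67) a lower one. Of the 12 identity genes, Nxph3 was the 1 called, 6 were lower at an unadjusted p under 0.05 (beside 2.18% of all genes) and 3 were above 0, with a median of −0.27 against −0.01 over all genes. These are differences between the classes: in gated cells alone the late median of the list was 0.03, with 0 lower unadjusted. Nxph3 log2 CPM was 7.46 and 7.50 in control and 7.70 and 6.92 in late gated pools. In the other cells it was 5.94 and 5.91, then 6.25 and 6.22. The other cells include the 970 cells just outside the gate, with 1 Foxp2 plus Syt6 UMI. Wnt4 was low in gated cells, at 2.34 and 3.13 in control and 2.55 and 4.53 in late pools, against 5.17 to 6.37 in the other cells.

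Tshz2 and Nxph1 had a lower late difference in gated than in other cells. Tshz2 differed by −1.32, with gated levels of 5.37 and 5.51 in control and 4.83 and 4.62 in late pools, while the other cells were at 6.42 and 6.48, then 7.12 and 6.98. Nxph1 differed by −2.12 with all cells, and by −1.56 (edgeR adjusted p = 0.865) without the gated cells holding 2 or more Tshz2 UMIs. In edgeR its adjusted p was 0.206 without control 1 and 0.185 without late 1, with a difference of −1.52 and −1.51. Leaving out those cells takes away most Tshz2 UMIs of the gated cells, so Tshz2 itself has no value to read there. Without them 16 genes differed in place of 47.

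The 2 hemispheres of trained mice differed in a few genes, none of them of corticothalamic identity. In the 8 libraries of the 4 trained pools, with pool as a block, edgeR called 19 of 11489 genes (0.165%), all higher contralaterally, beside 546 at an unadjusted p under 0.05 (4.75%). The microglial list of 6 genes had 4 called, among them the complement genes C1qa and C1qb and the growth factor receptor Csf1r. The other called genes include Fcrls, Fcer1g, Ctss and Laptm5, which are expressed by microglia and macrophages, and the chemokines Ccl2, Ccl3, Ccl7 and Cxcl2. Cst3, a secreted protease inhibitor that microglia express strongly, had contralateral and ipsilateral log2 CPM of 9.82 and 9.45 in late 1, 9.23 and 8.41 in early 1, 8.82 and 8.38 in early 2 and 8.64 and 8.30 in late 2. It was higher contralaterally in 4 of 4 pools, by 0.50 ± 0.06 (SE; edgeR adjusted p = 1.31e-05). C1qa, a complement subunit made by microglia, was higher by 1.76, C1qc by 1.36 and C1qb by 1.23. Hbb-bt, higher by 1.69, was higher in only 2 of 4 pools and gave −0.73 without late 1.

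With presumed doublets removed, 0 genes were called, and Cst3 differed by 0.11 (adjusted p = 1) and C1qa by 0.40. Without cells of 3 or more microglial UMIs, a choice made after seeing the data, 1 gene was called (Hbb-bt, 1.24); this choice removes cells by genes that are among those called, so microglial genes have no value to read there. DESeq2 called 0. Summed microglial genes were 223, 209, 125 and 70.3 CPM in contralateral libraries of late 1, early 1, early 2 and late 2, and 132, 37.2, 69.9 and 41.4 in the ipsilateral ones.

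Identity and activity genes were also compared between hemispheres. No identity gene passed even without adjustment, with log2 differences from −0.10 to 0.22, and of the activity genes only Btg2 did (0.27), while 14 of 20 were above 0. Rprm differed by −0.07 and Crym by −0.10. Compared with the other glutamatergic cells, 48 of 14515 genes had a larger side difference in gated cells (0.331%), all higher, including 4 of 4 haemoglobin and 5 of 6 microglial genes; Tshz2 (0.82) and Lypd1 were also among them. The count was 31 without early 1 and 32 without late 1, 8 with DESeq2 and 11 with presumed doublets removed.

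**Figure D4:**
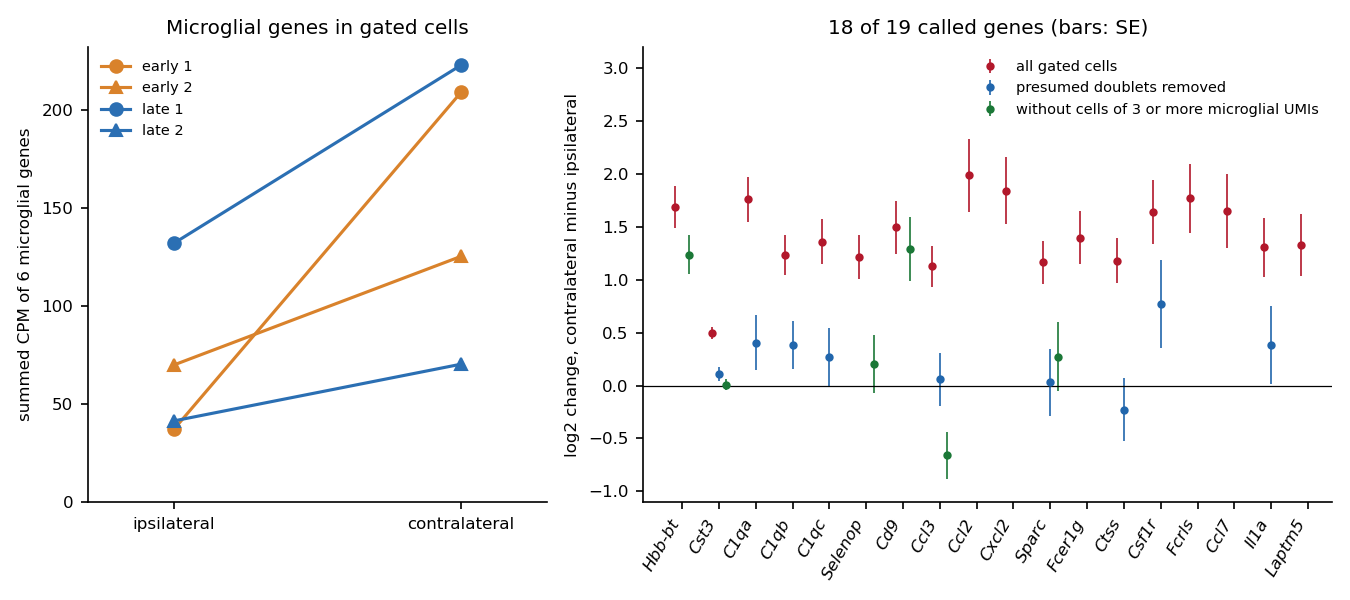
Left, summed CPM of 6 microglial genes in gated cells of the ipsilateral and contralateral hemisphere of each trained pool. Right, log2 change with SE for 18 of the 19 called genes with all gated cells, with presumed doublets removed and without cells of 3 or more microglial UMIs; a missing point is a gene removed by the count filter under that setting. The contralateral sum is higher in 4 of 4 pools, and Cst3 is at 0.50, 0.11 and 0.01 in the 3 settings.

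The reporter was read through wpre, an untranslated element at the end of the Ai9 transcript, because tdtomato UMIs were found in only 12 gated cells. At least 1 wpre UMI was found in 648 gated cells, at least 2 in 111 and at least 5 in 12, for 940 UMIs in all. Without thinning, 16.7 to 29.8% of gated cells per pool held wpre, against 3.58 to 10.2% of microglia-gated cells. Microglia lie outside the neuronal lineage and are taken here as the background. Library medians were 5754 to 22187 UMIs in gated cells and 1338 to 3634 in microglia, and wpre-positive gated cells had a higher median UMI count than negative ones in every library. With every cell thinned to 1000 UMIs, shares in gated cells were 3.51 and 1.54% in control, 3.36 and 4.18% in early and 2.46 and 3.12% in late pools. The microglial shares at that depth, 4.10, 3.49, 3.45, 2.92, 3.84 and 1.87% in the same order, were higher in 4 of 6 pools. In those 4 pools the gated share is below this background and is not read as labelling. Thinning to 1000 UMIs keeps a smaller part of a gated cell's UMIs than of a microglial cell's. The thinned shares therefore cannot say whether a whole gated cell holds more wpre than the background. Whether some gated cells were labelled was not tested. In early 2 the Wilson interval of the gated share (2.69 to 6.43%) covered the microglial value, and in late 2 (2.07 to 4.68%) it lay above it. After thinning to 3000 UMIs, which 37 to 704 microglia-gated cells per pool reached, the gated share was below the microglial one in 6 of 6 pools, also in early 2 (10.0 against 10.53%) and late 2 (6.0 against 8.11%).

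**Figure D5:**
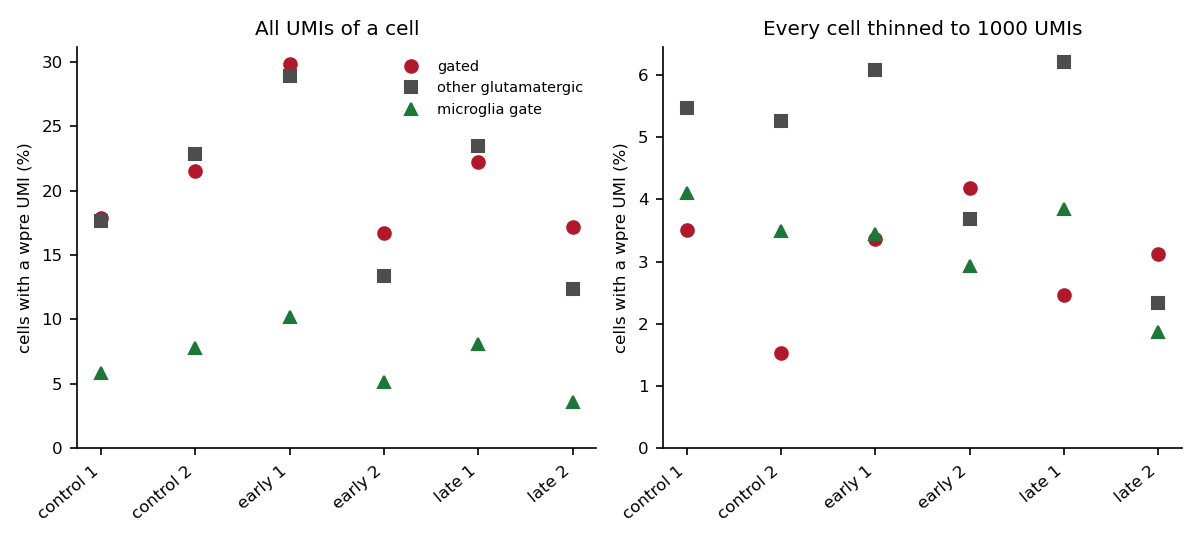
Percentage of cells with at least 1 wpre UMI in each pool, for gated, other glutamatergic and microglia-gated cells; left with all UMIs, right after thinning to 1000 UMIs per cell. On the left gated cells lie above microglia in each pool, and on the right they lie below microglia in 4 of 6 pools.

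Gated cells held wpre less often than other glutamatergic cells by 1.81 percentage points on average (SD 2.01), which the exact permutation test with sign flips over 6 pools, two-sided, did not separate from 0 (p = 0.125; higher in 2 of 6 pools). The sign depended on thinning, with −3.47 points after thinning to 3000 UMIs (higher in 1 of 6 pools) and 1.12 points without thinning (4 of 6). Early pools had 3.77% and late pools 2.79% against 2.53% in controls (exact permutation p = 0.667 and 1), and contralateral libraries 3.56% against 3.01% ipsilaterally (exact permutation p = 0.625, where 0.125 is the smallest possible).

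Cells with wpre were compared with cells without it in the same pools. With pool as a block, edgeR called 84 of 10840 genes (0.775%), 64 higher (0.59%) and 20 lower, beside 1071 at an unadjusted p under 0.05 (9.88%; higher in 6.71%). Of the ribosomal protein genes, 21 of 92 were called higher, with 81 above 0 and a median of 0.12 against 0.005 over all genes; Rps27 differed by 0.32. The count of 21 was 4 without late 2, 6 without control 1, 7 without early 1, 8 without late 1, 1 without the filter on low counts, and 0 without the pool block, with 2 or more wpre UMIs or with wpre called after thinning. It was 31 with RLE size factors, 30 with DESeq2 and without Tshz2 cells, 28 without control 2, 27 with doublets removed and 26 without cells of 3 or more microglial UMIs. Of the activity genes, Egr3 (0.24, adjusted p = 0.024, higher in 5 of 6 pools) and Junb (0.16, adjusted p = 0.0494, 6 of 6 pools) were called, 11 of 20 passed unadjusted and 17 were above 0. The 2 activity calls were 0 without late 2, without the pool block, without the filter on low counts, at 2 or more wpre UMIs and with wpre called after thinning, and 1 with DESeq2 and without control 1, control 2, early 1 or early 2. The unadjusted count was 6 without late 2, 1 without the block and 2 of 18 tested after thinning. No identity gene was called.

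Genes lower in wpre-positive cells included the neurofilament Nefm, at log2 CPM of 7.0 against 6.92 in control 1, but 7.36 against 7.63 in control 2, 6.98 against 7.50 in early 1, 7.03 against 7.47 in early 2, 6.30 against 6.74 in late 1 and 6.74 against 7.57 in late 2. It differed by −0.43 (edgeR adjusted p = 1.7e-05). Lamp5, Grp and Meis2 were lower by 0.73, 0.64 and 0.28 on the log2 scale, and the NMDA receptor subunits Grin1 and Grin2a by 0.20 and 0.18. Ptprz1 (1.28), Olig1 (1.04) and Apoe (0.85) were among the genes called higher. Of the glial lists, 1 of 1 tested precursor gene was called (Olig1), beside 0 of 5 microglial genes (median 0.16), 0 of 1 astrocyte gene (0.09) and 0 of 2 oligodendrocyte genes (−0.25). Requiring 2 or more wpre UMIs left 14 called genes, of which 2 were among the 84, and calling wpre after thinning to 3000 UMIs left 1, of which 0 were. The count was 23 without late 2, 49 without control 1 and 51 without early 1. The part of depth in these calls was not tested beyond these values.

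Activity genes were also compared in level between gated and other glutamatergic cells of the same pools, and 0 of 20 passed after adjustment. Of them 4 were higher and 5 lower in 6 of 6 pools, where 13.1% and 22.5% of 22742 genes were (35.6% in all). The tally depended on scaling: with TMM factors, a setting chosen after seeing the data, 6 were higher and 4 lower, beside 22.5% and 21.3% of 16984 genes, with Fosb and Jun higher in 6 of 6 pools and Egr3 lower in 5. The values that follow are without TMM factors. Npas4 was higher in gated cells in 6 of 6 pools, by 0.55 on the log2 scale (8.02 against 7.48), as were Nptx2 (0.32), Egr1 (0.25) and Homer1 (0.17). Bdnf was lower in 6 of 6 pools, by 1.49 (6.08 against 7.57), as were Fosl2 (1.10), Btg2 (0.40), Dusp1 (0.37) and Egr3 (0.21). Fos (−0.11, p = 0.406) and Arc (−0.02, p = 0.75) were not separated by the exact permutation test with sign flips, and with TMM factors both had the opposite sign (0.003 and 0.09). For each gene higher or lower in 6 of 6 pools, this exact permutation test gave p = 0.03125, the smallest that 6 pools allow. The smallest value after adjustment over the 20 tests run was 0.0694. Against layer 2/3 cells 13 passed, with 6 genes higher and 7 lower in every pool (no share over all genes was taken), and Homer1 differed by −0.05. With this smallest p, passing after adjustment depends on how many genes keep 1 sign in 6 of 6 pools. The counts that passed therefore restate that tally.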

How the data were processed

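The deposited matrices are raw UMI counts, 1 value for a gene in a barcode, produced with Cell Ranger 3.1.0 on GRCm38 (mm10), per the submitters' processing notes. The file headers name another software version and no further filter. The 10x kit version of each library is not given in the sources used here. Counts were used as deposited, and no barcode calling was repeated.

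Members, comparison gates and gene lists were chosen with earlier results of these data known. UMIs were summed per pool (or library) and tested with edgeR 4.0.16 (R 4.3.3, quasi-likelihood F test, TMM factors, filterByExpr, Benjamini-Hochberg adjustment at 0.05, prior count 2 for printed log2 CPM), and the script was tested on simulated data. DESeq2 1.42.0 was an alternative. Doublets were called with Scrublet in scanpy 1.11.5 at 0.8% per 1000 barcodes and kept in the main analysis. Library class (A or B) was inferred from shared barcodes and batch labels, and enters the stage models as a covariate. Exact permutation tests used SciPy 1.17.1.

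Named genes were up to 10 called genes by p, up to 5 per direction of mean log2 CPM at least 4 with the smallest unadjusted p among genes whose groups do not overlap, the fixed lists, and, for levels, the 15 largest differences each way. A few others are named after their values were seen. Results for some genes are not reported here. Pool numbers 1 and 2 are shared by the stages, but same-numbered pools did not deviate together in every pair (correlations −0.117, 0.483 and 0.219), so they were not used as pairs. Intervals and floors cover counting error only.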

Additional observations from a re-analysis of the deposited data

Results flagged for a closer look

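Of 26 groups of samples tested, 2 held a library far from the others, and chance gives about 1 in 20. Hbb-bt in late 1 contralateral was at log2 CPM 8.36 (next 2.06), and Cst3 in late 1 ipsilateral at 9.45 (next 8.41).

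The other flags are differences between gated and other glutamatergic cells under the same contrast, each tested in edgeR at an adjusted p under 0.05, on the log2 scale. For early against control they were Hbb-bt at 5.66, Hba-a1 at 4.64, Hba-a2 at 4.28 and Hbb-bs at 3.15, all haemoglobin genes of red blood cells. Those with a lower change in gated cells were Itm2a at −0.99, the lipocalin gene Apod at −4.09 and the fibroblast gene Dcn at −8.45; Dcn had 0 counts in gated cells of early pools, so its size depends on the prior count.

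For late against control, Hbb-bt was at 4.24, Cxcl2 at 2.60, Hba-a1 at 2.29, Hba-a2 at 2.24, C1ql3 at 1.75 and Wnt4 at 1.26. Cyr61 was at −0.67, Tshz2 at −1.32, Nxph1 at −2.12 and Apod at −4.24. The pools were uneven for some of these. Cxcl2 log2 CPM in gated cells was 1.48 and 0.50 in control and 5.63 and 1.61 in late pools. In the other cells it was 5.04 and 2.32, then 5.54 and 2.91. C1ql3 was at 1.03 and 1.29, then 1.37 and 3.22 in gated cells, and at 7.49 and 7.62, then 7.16 and 7.63 in the others. Summed haemoglobin UMIs in gated cells were 3087 CPM in late 1 contralateral and 851 in late 1 ipsilateral, and 417 CPM or lower in the other 10 libraries.

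For contralateral against ipsilateral, Hbb-bt was at 2.26, C1qa at 2.00, Hbb-bs at 1.78, C1qc and Ctss at 1.68 each, Hba-a2 at 1.59, Hba-a1 at 1.57, C1qb at 1.54 and Cst3 at 0.72. Without the late 1 pool, both hemispheres left out, Hbb-bt was at −1.38, Hbb-bs at −0.02, Hba-a1 at 0.64 and Hba-a2 at 0.50. The late 1 contralateral library alone was not left out.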

How the results depend on the processing

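Of the values given for each comparison, 92 alternatives kept direction and side of the threshold or stayed within 1.5 times, 65 moved and 8 reversed; of values for single genes, 165 lost significance, 13 gained it, 23 reversed and the others kept both. The cause was not tested where none is named. Stage calls, 0 in each comparison, were, for early, late and late against early, 59, 143 and 47 without a filter on low counts (more genes tested), 14, 181 and 43 in library class B only, and 6, 173 and 16 with sums per pool and sex, a choice made after seeing the data. For early they were also 2 with DESeq2, 1 with the replicate block and 4 with a stricter gate. Without control 1, without late 1 and in class B only, late against control is late 2 alone against control 2 alone. The sums per pool and sex have no pool block, so the male and female sums of 1 pool count as separate samples. Leaving out 1 pool gave 1 to 71 for early, 0 to 438 for late and 0 to 127 for late against early; without control 1 they were 67, 438 and 127, without control 2 35, 25 and 55, without late 1 63, 429 and 126, and without late 2 71, 69 and 42. Hemisphere calls (19) were 50 without the filter, 4 with the stricter gate, 0 with DESeq2, with doublets removed and with no replicate block, 1 without microglial UMIs, and 15 to 27 leaving out 1 pool. Calls by wpre (84) were 0 with no replicate block, 14 at 2 or more wpre UMIs, 129 with doublets removed, 1 with wpre called after thinning, and 23 to 116 leaving out 1 pool.

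Calls by class were, for early (7), 4 with RLE size factors, 12 without the filter, 0 with DESeq2, 3 with no cell class by library class term, 20 without microglial UMIs, 4 without Tshz2 cells and 1 to 33 leaving out 1 pool. For late (47) they were 22 with RLE size factors, 1 with DESeq2, 14 with no such term, 16 without Tshz2 cells, 16 with doublets removed and 15 to 50 leaving out 1 pool. For the side (48) they were 75 without the filter, 8 with DESeq2, 8 without microglial UMIs, 11 with doublets removed and 31 to 65 leaving out 1 pool. The early share difference was −0.293 points and the late one −0.900 after thinning to 2000 UMIs before gating, where the mean control share was 3.02%. With the stricter gate the late one was −1.66, at a mean control share of 8.67%. Leaving out 1 pool gave −2.66 to 4.42 for early and −2.28 to 4.80 for late. The wpre difference was 1.12 points without thinning and −2.33 to −1.42 leaving out 1 pool. Activity genes past the adjusted threshold were 13 against layer 2/3 cells; leaving out 1 pool could give none, since the exact permutation test over 5 pools cannot go below p = 0.0625.

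Single genes that reversed were Hbb-bt (−0.731 without late 1 to 1.90 leaving out another pool) and Ccl3 (−0.659 without microglial UMIs) for the side, 6330403K07Rik (−0.0396 with wpre called after thinning), and by class Hbb-bs (early, −0.319 without early 1 to 8.83; side, −0.0195 without late 1 to 2.06), Hba-a2 (late, −1.77 without control 1 and without late 1, up to 5.07 leaving out others), Hba-a1 (late, −2.02 without either, up to 5.74) and Hbb-bt (side, −0.398 with DESeq2, −1.46 with doublets removed, −1.38 without late 1 to 2.48). Against other cells, Fos (0.0133), Nr4a2 (0.0338) and Homer1 (−0.0542) reversed against layer 2/3 cells, Fosb (−0.0524), Jun (−0.104) and Nr4a3 (−0.0492) after thinning to 2000 UMIs, Nr4a3 (−0.0504) with the stricter gate, Fos (0.00318), Junb (0.0590) and Arc (0.0899) with TMM scaling, chosen after seeing the data, and Arc without late 1 (0.0193, otherwise down to −0.0789).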
